A study of Ovis aries with 6 samples.

Results

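KRT25, KRT27 and PADI3 are genes of the inner root sheath, the tube of cells that surrounds a growing hair or wool fibre inside the follicle. Their probes were found by accession: every non-control probe annotated with the sheep RefSeq mRNA of KRT25 (NM_001009739), KRT27 (NM_001114763) or PADI3 (NM_001009791) was taken, whatever its signal. This gave 5 of the 15008 probes, 2 for KRT25, 1 for KRT27 and 2 for PADI3, and 3 of the 476 genes that could be named. All 5 probes were well above background on all 6 arrays and all were tested. Full-thickness skin was taken from the wool-bearing body side (3 samples) and from the groin, which is labelled as not bearing wool (3 samples), of Aohan fine wool sheep aged 12 months. At each site the samples came from 1 ram (replicate 1) and 2 ewes (replicates 2 and 3), which shared a father. Each sample was hybridised with a Cy3 label to its own single-colour Agilent sheep array, and the title of the series names anagen, the growth phase of the wool follicle, as the question. The skin was processed whole, so fewer cells of a type and less RNA per cell cannot be told apart.

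The inner root sheath moulds the fibre, hardens before it and is shed near the skin surface. KRT25 and KRT27 encode type I keratins, which pair with type II keratins to form the filaments of the sheath cells. In the gene table used for naming, KRT25 and KRT27 lie in the run KRT25, KRT26, KRT27, KRT28, a cluster of type I keratins of the sheath. PADI3 encodes a peptidylarginine deiminase, an enzyme that turns arginine in proteins into citrulline, and lies between PADI4 and PADI1 of the same family. Trichohyalin, the protein that embeds the sheath filaments, is a known substrate of such enzymes.

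The 3 groin arrays were read in 1 scan and the 3 body side arrays in another, so the site and the scan cannot be told apart in the differences that follow. Body side arrays were less bright, with a 75th percentile of the processed signal between 1096 and 2028, against 3629 to 4353 on the groin arrays. This log2 difference of -1.57 had a two-sided p of 0.1 in an exact permutation test, the lowest value that a design of 3 against 3 can give. For scaled levels, the log2 value of each array's own 75th percentile was subtracted from the log2 processed signal, so that scaled levels and differences are relative to that percentile. For the 5 probes of the 3 genes the signals before this scaling are given too. No non-control spot was saturated. The number of arrays limits the precision.

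All 3 genes were higher on the body side than in the groin on the scaled values, KRT27 by 9.89-fold, KRT25 by 6.64-fold and PADI3 by 3.83-fold. All 5 probes passed the test (limma, Benjamini-Hochberg adjusted p under 0.05 over 13280 tested probes). The same test called 69.9% of all tested probes, 36.8% higher on the body side and 33% lower. For all 5 probes the body side arrays lay above the groin arrays without overlap, as they did for 39.6% of the tested probes.

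KRT27, a type I keratin of the sheath, was measured by the probe A_70_P041836. Its scaled level was 8.12, 7.24 and 8.17 on the body side, against 4.73, 4.47 and 4.40 in the groin (replicates 1 to 3). The lowest body side array was thus well above the highest groin array. It averaged 7.84 ± 0.52 in body side skin and 4.53 ± 0.17 in groin skin (SD, n = 3 each), a log2 difference of 3.31 ± 0.27 SE (limma adjusted p = 3.64e-05), with a 95% interval of 2.70 to 3.92. It ranked 64th of the 13280 differences and 6th among the 442 tested named genes.

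Before scaling, KRT27 was the steadiest of the 5 probes within each site. Its processed signal was 304381, 306383 and 321058 on the body side, against 96454, 91094 and 91848 in the groin. The SD of its log2 processed signal was 0.042 in body side skin and 0.045 in groin skin, although the body side arrays differed among themselves in overall brightness. The scaled body side values were more widely spread, with replicate 2, the brightest of the 3 body side arrays, as the lowest. Without scaling, KRT27 differed by 1.74 ± 0.26 SE on the log2 scale (limma adjusted p = 2.21e-04), or 3.34-fold.

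KRT25, the second sheath keratin, was read by 2 probes that gave nearly the same difference. The brighter one, A_70_P051041, had scaled levels of 8.30, 7.53 and 8.59 on the body side, against 5.44, 5.59 and 5.20 in the groin. The dimmer one, A_70_P051042, had scaled levels of 7.87, 7.17 and 8.20 on the body side, against 5.13, 5.21 and 4.70 in the groin. In both probes body side replicate 2 was the lowest of its site and still above every groin array. The log2 difference of the brighter probe was 2.73 ± 0.28 SE (limma adjusted p = 9.04e-05) and that of the dimmer one 2.73 ± 0.28 (limma adjusted p = 9.62e-05). Within an array the brighter probe exceeded the dimmer by 0.40 ± 0.03 in body side skin and by 0.40 ± 0.10 in groin skin on the log2 scale (SD, n = 3 each). The 2 probes share their target and are not separate evidence.

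The processed signal of the brighter KRT25 probe was 346181, 375107 and 430207 on the body side, against 157510, 197693 and 160208 in the groin. The groups did not overlap before scaling either, and the unscaled log2 difference was 1.16 ± 0.28 SE (limma adjusted p = 0.00348), or 2.24-fold. This probe was among the brightest of all on the body side, where it ranked 11th, 10th and 5th of 15208 spots. Its processed signal there came to 53.0%, 57.1% and 65.7% of the scanner's saturation value, with raw median signals of 240894, 342205 and 337023. The highest processed signal of groin replicate 1 was 670508, above its saturation value of 654172, with no spot saturated. These shares are thus no measure of nearness to saturation. In the groin the brighter KRT25 probe ranked 154th, 121st and 148th. KRT27 ranked 16th, 30th and 23rd in body side skin and 238th, 260th and 250th in groin skin. Both sheath keratins were thus among the 260 brightest spots of every array, those of the skin labelled as not wool bearing included. All KRT25 and KRT27 readings came from the low-gain scan, which the scanner software scales up for bright spots; the part of this step in their differences was not tested.

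PADI3, the deiminase, was dim at both sites. The probe A_70_P030052 had scaled levels of -2.89, -2.97 and -3.35 on the body side, against -5.19, -5.06 and -4.78 in the groin. The probe A_70_P030051 had scaled levels of -3.78, -3.56 and -3.72 on the body side, against -5.35, -5.24 and -4.99 in the groin. On both probes all body side arrays were above all groin arrays. The log2 differences were 1.94 ± 0.20 SE (limma adjusted p = 8.89e-05) and 1.51 ± 0.17 (limma adjusted p = 1.55e-04), or 3.83-fold and 2.84-fold.

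Unlike those of the keratins, the unscaled PADI3 signals of both sites overlapped. The processed signal of A_70_P030052 was 147, 258 and 110 on the body side, against 99.6, 123 and 158 in the groin. That of A_70_P030051 was 80.1, 172 and 84.7 on the body side, against 89.3, 109 and 137 in the groin. The highest reading of each probe was that of body side replicate 2, and the other 2 body side arrays lay within or below the groin range. The unscaled log2 differences were 0.37 ± 0.37 SE (limma adjusted p = 0.380) and -0.063 ± 0.36 (limma adjusted p = 0.880). The PADI3 call therefore holds relative to the other probes of an array and not for the signal itself. Ranks need no scaling factor, but they too are relative to the other spots of an array and are not separate evidence. By rank, A_70_P030052 stood at 7867, 8026 and 8719 of 15208 spots from the brightest on the body side. In the groin it stood at 11793, 11675 and 11484, and the ranks did not overlap. The share of all probes whose ranks did not overlap was not computed. On the scaled values the body side arrays lay above the groin arrays without overlap for 39.6% of the tested probes.

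The median spot brightness of the 2 PADI3 probes was between 2.98 and 5.76 times that of the local background over the 6 arrays. The error that the scanner software gave for the processed signal was between 10.2% and 13.7% for PADI3 and slightly lower for the keratins. Within an array, A_70_P030052 exceeded A_70_P030051 by 0.61 ± 0.25 in body side skin and by 0.18 ± 0.02 in groin skin on the log2 scale (SD, n = 3 each). These groups did not overlap (two-sided exact permutation p = 0.1, the lowest possible), whereas the same value for the 2 KRT25 probes was alike at both sites, with a difference of -0.0032 (exact p = 1).

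**Figure D1:**
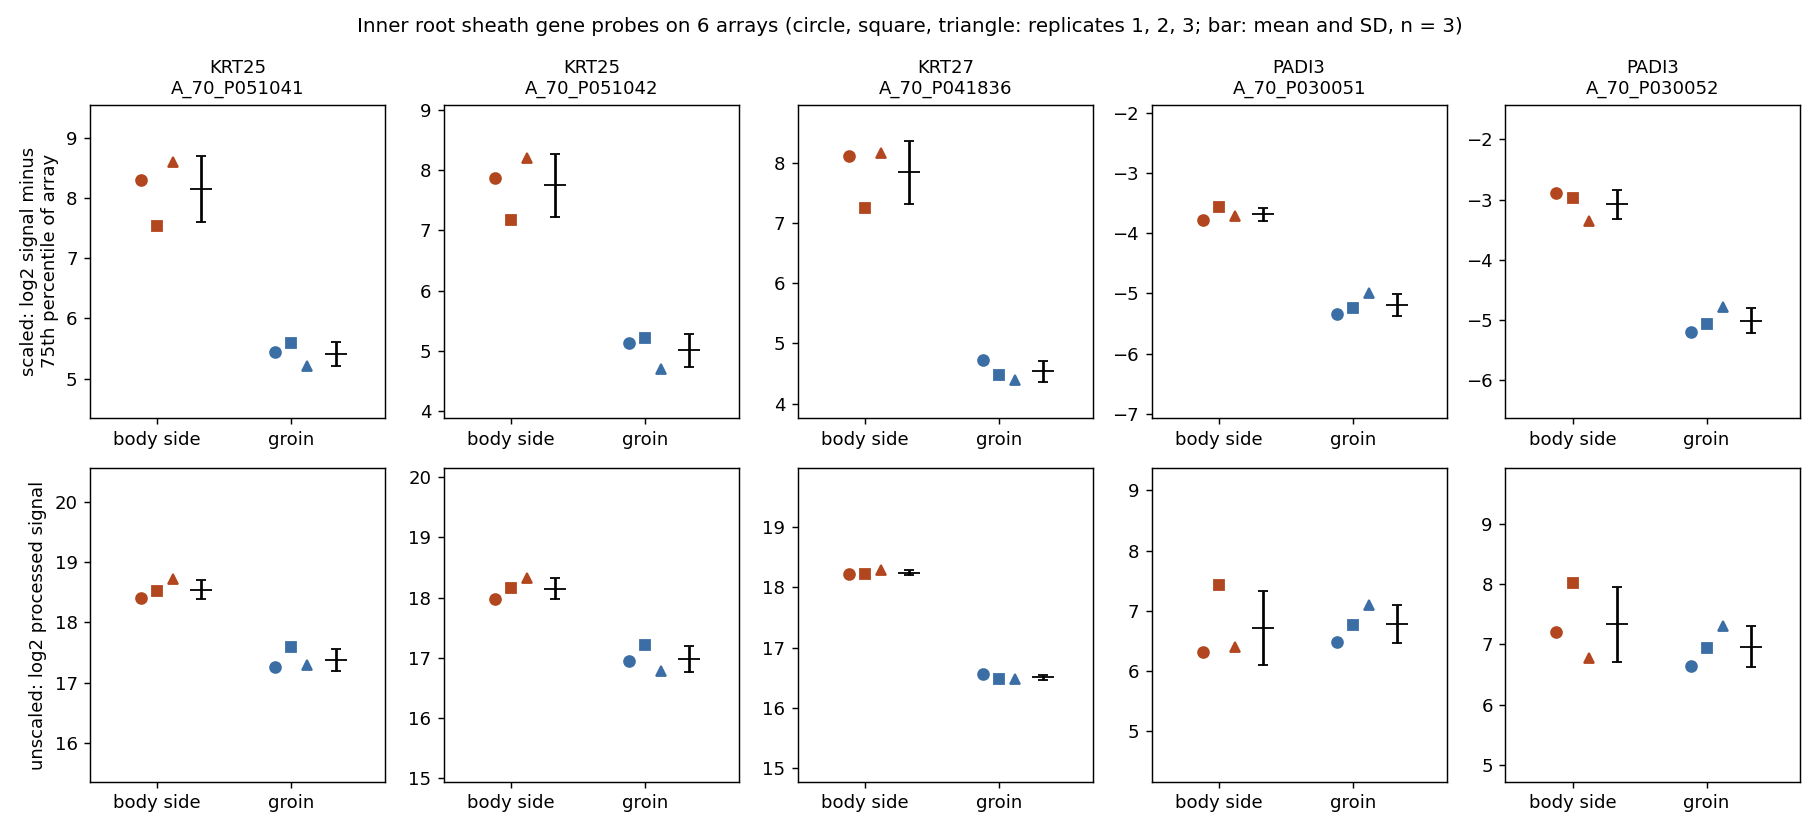
Level of each of the 5 probes on the 6 arrays, with scaled values in the upper row (log2 signal relative to each array's 75th percentile) and unscaled log2 processed signals in the lower row. Each panel spans the same range on the log2 scale, points are arrays and bars are the mean and SD of 3. The sites are apart for all 5 probes in the upper row, and in the lower row for KRT25 and KRT27 but not for PADI3.

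Without scaling, 3 of the 5 probes (both of KRT25 and that of KRT27) had all body side arrays above all groin arrays, as did 2.86% of the tested probes. The limma test on unscaled values called these 3 probes higher, as it did 1.43% of the tested probes.

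The site difference moved with the brightness of a probe across the whole array. The tested probes were divided by mean level into 10 groups of equal size. In the brightest group, where KRT25 and KRT27 lay, the median log2 difference was 1.13 and 78.0% were called higher on the body side. In the third group from the dimmest, where both PADI3 probes lay, the median was -0.11 and 30.9% were called higher. Set against the median of their own group, KRT27 stood 2.18 above it, the brighter KRT25 probe 1.60 and the PADI3 probes 2.05 and 1.62 on the log2 scale.

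**Figure D2:**
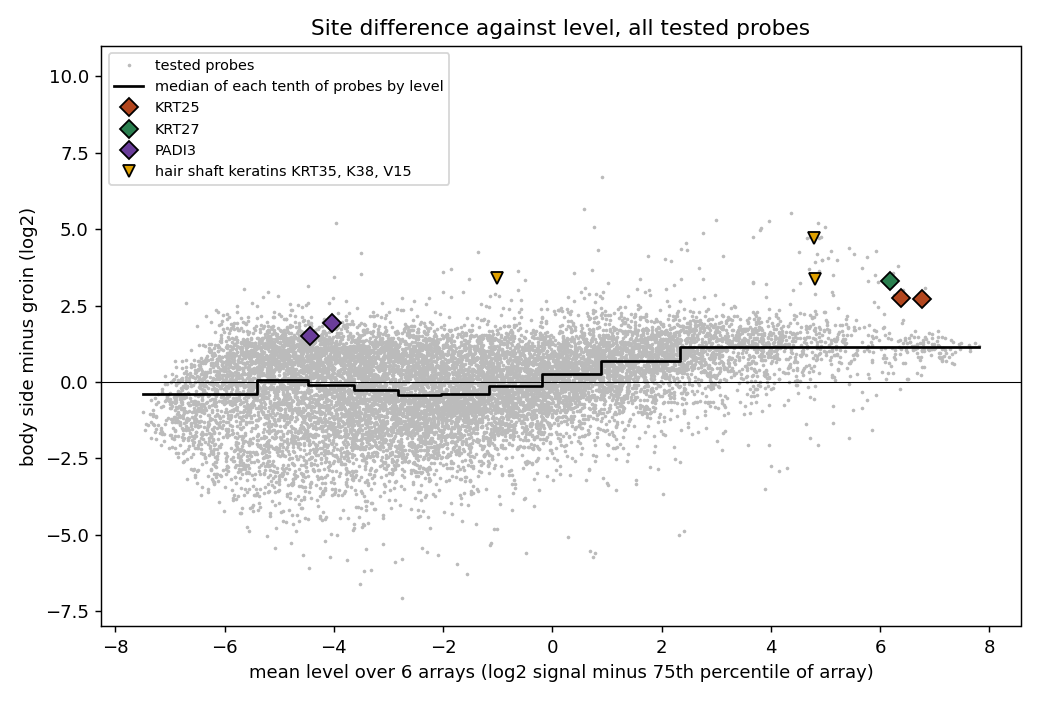
Log2 difference between body side and groin (vertical axis) against the mean scaled level over 6 arrays (horizontal axis) for all 13280 tested probes in grey. The black line is the median of each of 10 groups of probes by level, diamonds are the 5 probes of KRT25, KRT27 and PADI3, and triangles the hair shaft keratins. The line lies at 1.13 at the bright end, where KRT25 and KRT27 lie above it at 2.73 and 3.31.

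The order of the 3 genes by the size of their difference changed with the scaling. By the 75th percentile it was KRT27, KRT25 and PADI3. With quantile normalization the brighter PADI3 probe differed by 2.25, KRT27 by 2.05 and the brighter KRT25 probe by 1.41 on the log2 scale. Cyclic loess, which removes trends with brightness, gave 2.23 for PADI3, 1.75 for KRT27 and 1.06 for KRT25. In the log2 table deposited by the authors, PADI3 differed by 2.21, KRT27 by 2.03 and KRT25 by 1.36. All 3 genes were called higher in each of these settings, and KRT27 differed more than KRT25 in all of them.

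**Figure D3:**
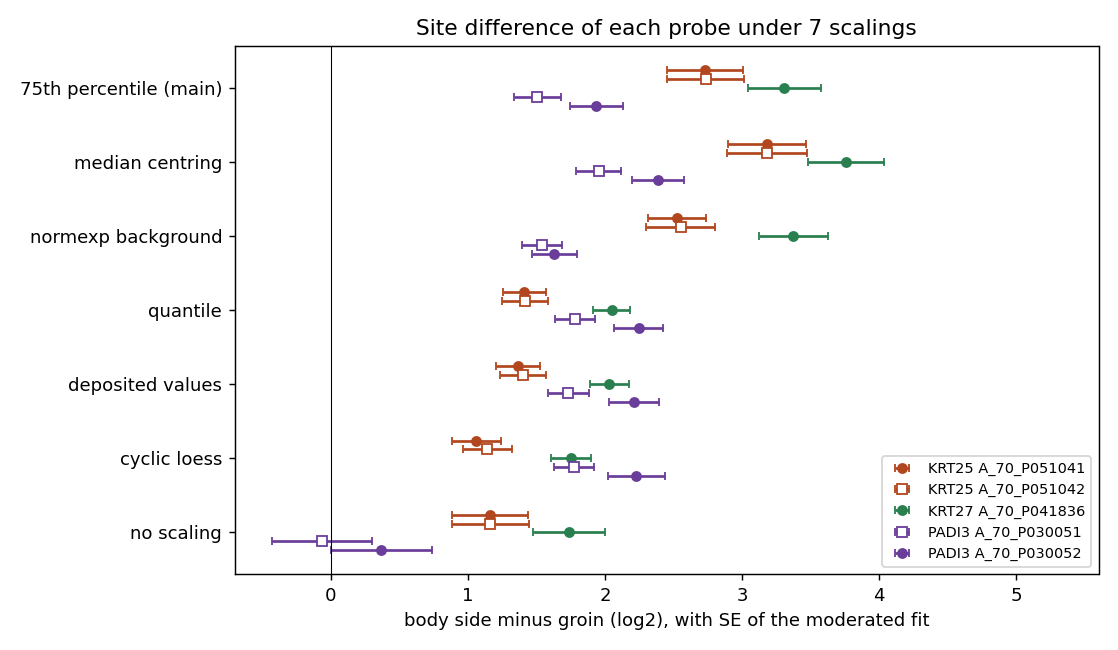
Log2 difference between body side and groin with its SE for the 5 probes (colours) under 7 scalings of the same 6 arrays, with filled circles for the brightest probe of a gene and open squares for the other probe. KRT25 and KRT27 stay above 0 throughout, between 1.06 and 3.76, while the PADI3 probes lie at -0.063 and 0.37 without scaling.

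A ratio of 2 probes on the same array does not depend on a scaling factor. A change of it between sites means that the 2 signals changed unequally. For probes of unlike brightness, the trend of the site difference with brightness can enter such a change, and its part was not tested. In all, 12 such ratios were compared, 3 between the genes and 9 against the hair shaft keratins KRT35, K38 and V15 (also known as KRT31). The log2 ratio of KRT25 over KRT27 was 0.19, 0.29 and 0.42 on the body side, against 0.71, 1.12 and 0.80 in the groin. The groups did not overlap, and the ratio was lower on the body side by a log2 difference of -0.58 (two-sided exact permutation p = 0.1, the lowest possible; adjusted over the 12 ratios p = 0.133). The ratio of KRT27 over PADI3 was higher on the body side, with a log2 difference of 1.37 and no overlap (exact p = 0.1). That of KRT25 over PADI3 differed by 0.79 with overlapping groups (exact p = 0.3). Both ratios over PADI3 had the opposite sign with quantile normalization, at -0.20 and -0.83.

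Each hair shaft keratin had 2 probes, and the ratios over K38 and V15 depended on which was used. The log2 ratio of KRT27 over the brighter KRT35 probe was 0.69 ± 0.17 in body side skin and 2.11 ± 0.11 in groin skin (SD, n = 3 each), a difference of -1.41 without overlap (two-sided exact permutation p = 0.1), and over the other KRT35 probe it differed by -1.43 (exact p = 0.1). Its ratio over the brighter K38 probe overlapped between the sites, with a difference of -0.09 (exact p = 0.7), whereas over the other K38 probe it differed by -0.94 without overlap (exact p = 0.1). The ratio of KRT27 over V15 overlapped with either probe, at -0.05 (exact p = 1) with the brighter and 0.30 (exact p = 0.5), the opposite sign, with the other.

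The ratios of KRT25 over the brighter probes of the shaft keratins were lower on the body side, with log2 differences of -1.99 against KRT35, -0.66 against K38 and -0.63 against V15, each without overlap (exact p = 0.1). With the other probes they were -2.01, -1.52 and -0.27, and the ratio over V15 then overlapped (exact p = 0.9). The ratios of PADI3 were lower with all 6 shaft keratin probes, with differences between -2.80 and -1.07 and no overlap (exact p = 0.1 each). No p of this family could pass 0.05 with 3 against 3 arrays. The ratios over the other probes were added after the data were seen and are not among the 12. PADI3 lay in a group by level with a median site difference of -0.11, and the brighter K38 probe in one with -0.13. Both V15 probes and the brighter KRT35 probe lay in the brightest group, with 1.13. The part of brightness in these ratios was not tested. No ratio over a shaft keratin was run with quantile normalization or the deposited values. Both settings turned the sign of the sheath keratin ratios over PADI3. How often other pairs of probes lay apart between the sites was not computed.

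**Figure D4:**
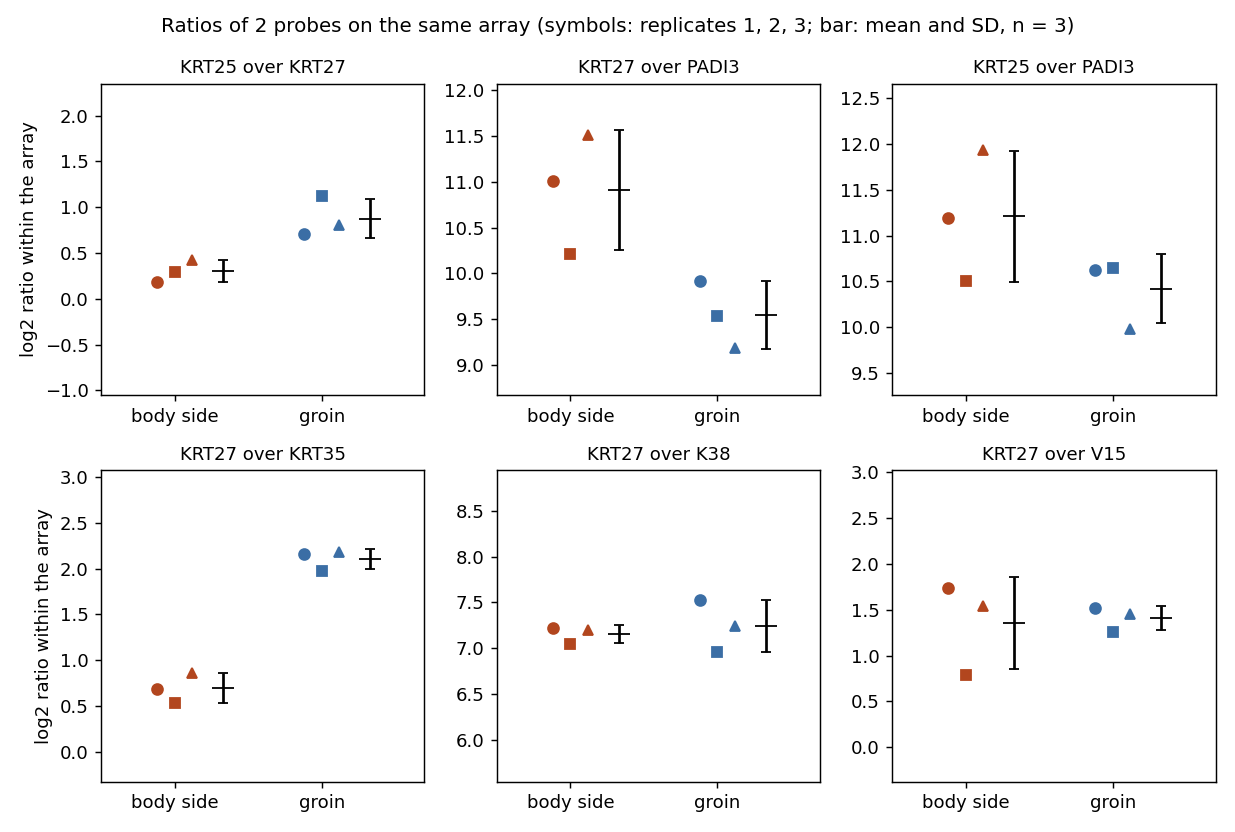
Log2 ratio of 2 probes on the same array (vertical axis, each panel over the same range) in body side and groin skin, with points for arrays and bars for the mean and SD of 3. With the brighter probe of each shaft keratin, the ratios of KRT27 over K38 and over V15 overlap between the sites, while that of KRT27 over KRT35 lies at 0.69 in body side skin and 2.11 in groin skin.

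Few other genes of the sheath had a named probe. Of 10 listed sheath keratins and trichohyalin genes only KRT25 and KRT27 were tested, and of 11 citrullination and cross-linking enzymes only PADI3. Of 12 listed regulators of the sheath, 2 were tested and both rose on the scaled values. BMP4, a secreted ligand of the bone morphogenetic protein pathway, differed by 2.74 ± 0.17 SE (limma adjusted p = 1.14e-05) and BMPR1B, a receptor of that pathway, by 1.76 ± 0.21 (limma adjusted p = 1.77e-04). All 3 tested hair shaft keratins rose on the scaled values, KRT35 by 4.72 ± 0.23, K38 by 3.39 ± 0.24 and V15 by 3.36 ± 0.17, and so did both keratin-associated proteins, KRTAP4.3 by 2.94 ± 0.22 and KRTAP5.4 by 4.98 ± 0.29 (log2 differences ± SE). IGFBP5, a binding protein of insulin-like growth factors and the 1 tested gene of the outer root sheath list, fell by 1.44 ± 0.20. The median over the 442 tested named genes was 0.39, with 198 higher and 113 lower. No listed gene of epidermal differentiation or of desmosomes was tested, so the epidermal part of the skin could not be checked by these markers.

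**Figure D5:**
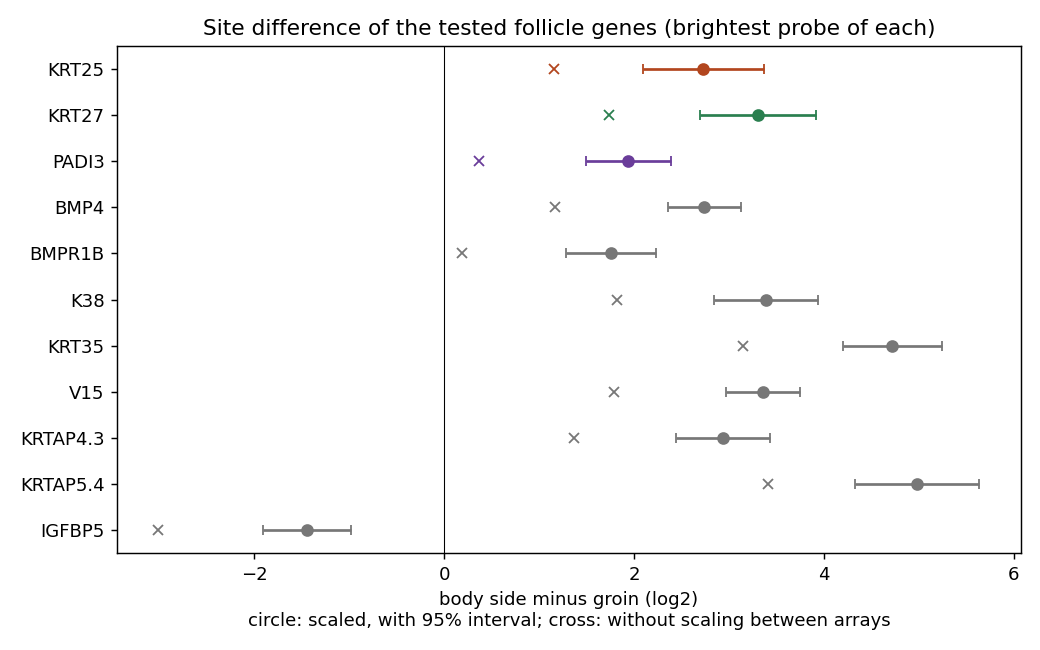
Log2 difference between body side and groin of the tested follicle genes, 1 row per gene, with circles for scaled values and their 95% intervals and crosses for unscaled values. All rows but IGFBP5 lie above 0, and among the scaled values PADI3 (1.94) and BMPR1B (1.76) are the smallest of those above 0.

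Markers of other cell types also differed between the sites on the scaled values. Over 9 lists 26 markers were tested, and 13 were called higher on the body side and 10 lower. Of the 442 tested named genes, taken in the same way by their brightest probe, 198 were called higher and 113 lower. Over all tested probes, most of them unnamed, 36.8% were called higher and 33% lower. Without scaling, 5 of the 26 differences lay above 0, no marker was called higher and 18 were called lower. The limma test on unscaled values called 1.43% of the 13280 tested probes higher and 9413 of the 13280 lower. Most tested probes were thus called lower without scaling, while on the melanocyte list 0 of 2 were. On the scaled values, 2 of 3 markers of skeletal muscle, 2 of 2 of sweat glands, 2 of 2 on the melanocyte list and 3 of 4 of T lymphocytes were called higher. The third muscle gene and the fourth T lymphocyte gene were lower. Both endothelial selectins were lower, as were 2 of 3 dermal fibroblast genes, while the third was higher. Adipocyte markers split (1 higher and 1 lower of 2), and of 3 myeloid markers 1 was lower. Of 5 markers of sebaceous glands and lipid synthesis, 2 were called higher and 2 lower, by unequal amounts. SCD and ACLY differed by -6.09 and -3.57 on the log2 scale, ACACA and DGAT1 by 0.76 and 0.46. SCD was well above background on 0 body side arrays and on 3 groin arrays.

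These counts rest on the brightest probe of each gene. Of the 18 markers with another tested probe, 8 had one with a different call. ASIP and DGAT1 had a second probe called in the opposite direction, at -0.86 ± 0.19 and -0.84 ± 0.19 SE on the log2 scale. Second probes of the myeloid genes TLR2 and CD14 were called lower, at -1.74 and -0.90, where the brighter ones were not called. Those of AQP5, MB, DCN and PLIN1 were not called, where the brighter ones were called higher.

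The summed scaled level of a list, in multiples of the 75th percentile, was often that of 1 gene. The melanocyte list ran from 37.4 to 63.5 on the body side and from 13.0 to 17.4 in the groin, but ASIP, which encodes the agouti signal that cells of the dermal papilla send to melanocytes, made up at least 99.6% of it on every array. TYR, the pigment enzyme tyrosinase of melanocytes, was dim and averaged -2.86 in body side skin and -4.64 in groin skin on the scaled log2 values. The fibroblast sum ran from 117 to 206 on the body side and from 85.0 to 96.5 in the groin and was at least 97.7% DCN, so that it was higher although BGN and MMP2 were lower. The muscle sum ran from 6.99 to 9.28 on the body side and from 3.49 to 4.72 in the groin and was at least 97.0% MYL11. That of T lymphocyte genes ran from 6.57 to 7.95 on the body side and from 2.38 to 2.92 in the groin, with CD3E between 63.1% and 72.5% of it.

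Sweat gland genes summed to between 0.200 and 0.340 on the body side and to between 0.0407 and 0.0971 in the groin. Endothelial genes summed to between 0.147 and 0.169 on the body side and to between 0.316 and 0.375 in the groin. Those of sebaceous glands and lipid synthesis ran from 0.834 to 0.906 on the body side and from 2.01 to 2.62 in the groin. The part of these differences in those of KRT25, KRT27 and PADI3 was not tested.

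The named genes with the most similar profile were listed by the root mean square distance of mean-centred scaled levels over the 6 arrays, among 438 other named genes. For KRT27 these were CRYAB, a small heat shock protein (distance 0.128), K38 (0.177), SFTPC, a surfactant protein (0.190), V15 (0.304) and KRT25 (0.321). For KRT25 they were TXNDC17, a thioredoxin-like protein (0.169), RCAN1, an inhibitor of calcineurin (0.246), AHSG, the plasma protein fetuin-A (0.254), BMP4 (0.259) and LGALS15, a galectin (0.297). For PADI3 they were SST, which encodes somatostatin (0.151), PR (0.222), TKDP1 (0.237), GNRHR, a receptor of gonadotropin-releasing hormone (0.244), and IL5, an interleukin (0.249). The 15 Pearson correlations with these genes lay between 0.969 and 0.997. They are descriptions over 6 arrays that share the split by site, the scan and the scaling, and most probes changed with the site.

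The site difference of KRT27 was 3.39 in the ram and 3.27 in the ewes, and that of the brighter KRT25 probe was 2.86 in the ram and 2.66 in the ewes (log2). For the brighter PADI3 probe it was 2.29 in the ram and 1.76 in the ewes. The difference between the sexes did not pass the test for any of the 5 probes (limma interaction term, lowest adjusted p = 0.937), as for all but 0.106% of the probes. With 1 ram, this difference had an SE of 0.53 for KRT27, 0.58 for KRT25 and 0.43 for PADI3 on these probes, so differences of that order were not detectable.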

How the data were processed

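Agilent Feature Extraction 10.5.1.1 gave the scanner intensity values, according to the file headers and the submitters' processing notes. The processed signal was deposited as an intensity corrected for background within the array, not normalized between arrays. A deposited table of log2 values, whose columns share a median of 8.31, correlated at 0.999 with the processed signals after quantile normalization; its background step is not given in the sources used here.

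Control spots and outlier-flagged spots (6 to 51 per array) were left out, and the 50 probes with 5 spots were averaged. Each array's 75th percentile was subtracted from its log2 processed signals to give the main values. The fit took probes that were well above background on every array of 1 site or both. Groin was subtracted from body side, with limma 3.58.1 (lmFit, eBayes) in R 4.3.3, checked on simulated data. Standard errors are moderated. Probes were named by RefSeq accession through a gene table of the assembly ARS-UI_Ramb_v3.0 (734 matched, 14274 did not); the files name no build, so no coordinates are given.

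Replicate numbers came from the titles. At both sites number 1 is the ram; the labels do not tie the ewes' numbers 2 and 3 across sites. The main fit has no block because that tie is not stated. Deviations of same-numbered arrays correlated at 0.159, 0.089 and -0.088 over probes. Those of differently numbered arrays ran from -0.242 to 0.164 (body side 2 with groin 3), so these values do not settle the pairing. The members, lists and naming rules (all probes of the 3 genes; list members by smallest adjusted p; the 5 nearest profiles) were chosen with earlier results of these data known. For a gene with several probes the brightest stands for it. Alternatives were normexp background correction, quantile, median and cyclic loess scaling, no scaling, the deposited log2 values, other filters and variance models, a replicate block, sex as a term, and leaving out arrays.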

Additional observations from a re-analysis of the deposited data

How the results depend on the processing

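KRT25 and KRT27 kept their direction and their call under all 20 alternatives run, with log2 differences from 1.06 to 3.18 for the brighter KRT25 probe, from 1.14 to 3.18 for the other and from 1.74 to 3.76 for KRT27. Both PADI3 probes kept theirs under 19 of 20; without scaling between arrays they were at 0.37 (A_70_P030052, no longer past the threshold) and -0.063 (A_70_P030051, turned in sign). Leaving out arrays moved the 5 probes between 1.42 and 3.61, all still called. With the replicate block the log2 differences were the same, at 3.31 for KRT27, 2.73 for both KRT25 probes and 1.94 and 1.51 for PADI3, with limma adjusted p of 2.21e-05 for KRT27, 1.04e-04 for the brighter KRT25 probe and 1.84e-04 for the brighter PADI3 probe, which changed no call on the 5 probes. Over all probes, 4891 were called higher and 4386 lower on the body side; without scaling these counts were 190 and 9413, and the leave-outs gave from 3237 (without replicate 3 at both sites) to 5146 higher. Higher calls made up 52.7% of all calls, but 68.4% with normexp and 68.1% with median centring, where the median over all tested probes lay higher by 0.36 and 0.45. The within-array log2 ratio of KRT25 over PADI3 turned to -0.83 with quantile normalization and -0.85 in the deposited values, and that of KRT27 over PADI3 to -0.20 and -0.18; these settings change bright and dim probes by different amounts. Leaving out arrays moved them between 0.21 (without replicate 3) and 1.26 (without replicate 2) for KRT25 and between 0.89 (without replicate 3) and 1.72 (without body side replicate 2) for KRT27. The ratio of KRT25 over KRT27 stayed below 0, from -0.85 to -0.45. With the other probe of the hair shaft keratin, an alternative chosen after seeing the data, the ratio of KRT27 over V15 turned to 0.30, and the other 8 ratios over shaft keratins kept their sign. With normexp, run on the median spot signal because the files hold no mean signal, a choice made after seeing the files, the ram minus ewe difference of the KRT25 probes turned to -0.28 and -0.22, still far from the threshold.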
